A study of Homo sapiens with 36 samples.

Results

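Expression of 10 genes of the SF3B complex and its U2 snRNP partners was followed in TC32 cells, an Ewing sarcoma line, after siRNA silencing of SF3B1, SUPT6H or HNRNPH1. The genes were SF3B1, SF3B2, SF3B3, SF3B4, SF3B5, PHF5A, SF3A2, SF3A3, DDX46 and SMNDC1, taken by symbol from 11437 measured genes. The platform annotation gave them 13 of the 47323 probes, and 12 of these were detected often enough to be tested. The question was whether the mRNAs of the partners rise when SF3B1 is lost.

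RNA was profiled on 36 Illumina bead arrays, 3 for each of 9 siRNAs, 6 for the negative control siRNA siNeg and 3 for Untreated cells. Per the labels every array stood for a dose of 20 nM and 48 h, the Untreated arrays included, although the treatment text speaks of untransfected cells. Each target had 3 siRNAs, named A2, A3 and Q3 for SF3B1 and for HNRNPH1, and A1, A3 and Q3 for SUPT6H. The siNeg replicates 1 to 3 (set 1) served as control for SF3B1 and SUPT6H, and replicates 4 to 6 (set 2) for HNRNPH1. All groups were the same line in serum-containing medium, and the labels do not say whether replicates were separate cultures, so p-values measure the spread between arrays, which may be technical.

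The U2 snRNP is the splicing particle whose RNA pairs with the branch point of an intron. Its SF3B part grips the branch point duplex, and its SF3A part joins SF3B to the core of the particle, which carries the ring of Sm proteins found on most spliceosomal snRNPs. SF3B1 is the large helical scaffold of SF3B, is often mutated in myelodysplasia, and together with PHF5A forms the pocket that holds the branch point adenosine. DDX46 is the human counterpart of yeast Prp5, an RNA helicase that acts as U2 joins the intron, and SMNDC1, also called SPF30, is a Tudor domain protein needed for spliceosome assembly.

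Levels are log2 intensities after background correction and quantile normalization, and changes are differences on that log2 scale. A probe was called changed where its Benjamini-Hochberg adjusted p in limma's two-sided test was below 0.05, and the standing probe of a gene is its brightest. Between 13106 and 16788 probes were detected per array, with 13106 to 14853 on siSF3B1 arrays and 15412 to 16295 on set 1 arrays. Every siSF3B1 array thus had fewer detected probes than every set 1 array, and the part of this in the results below was not tested. Of 8 Ewing sarcoma markers with a probe, 7 were detected on all 36 arrays, while 0 of 4 blood, 1 of 5 epithelial and 0 of 4 skeletal muscle markers were. SUPT6H mRNA fell by 1.77 with its own siRNAs and HNRNPH1 mRNA fell by 1.35 with its own, while SUPT6H also fell by 1.14 with siSF3B1 and fell by 0.78 with siHNRNPH1, and HNRNPH1 fell by 0.59 with siSUPT6H.

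The start regions of 4 partners that rose with siSF3B1 are shown, since these genes rose together with every SF3B1 siRNA, a choice made with their values known. Each is the 250 bases before the RefSeq start in build GRCh38.p14, read 5′ to 3′ on the gene's strand. Capitals mark the matches to any of the searched motifs CCGGAAG (ETS family), GGGCGG (SP1), AAGATGGC (YY1), GCATGCGC (NRF1), CACGTG (E-box), CCAAT and TATAAA, on either strand.
DDX46, chr5:134758529-134758778, plus strand: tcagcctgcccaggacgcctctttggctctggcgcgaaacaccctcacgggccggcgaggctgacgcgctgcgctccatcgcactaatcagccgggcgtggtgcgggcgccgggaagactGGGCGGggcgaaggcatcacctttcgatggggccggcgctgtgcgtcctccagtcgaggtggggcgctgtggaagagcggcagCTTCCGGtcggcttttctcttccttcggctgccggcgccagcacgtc
SF3B4, chr1:149927804-149928053, minus strand: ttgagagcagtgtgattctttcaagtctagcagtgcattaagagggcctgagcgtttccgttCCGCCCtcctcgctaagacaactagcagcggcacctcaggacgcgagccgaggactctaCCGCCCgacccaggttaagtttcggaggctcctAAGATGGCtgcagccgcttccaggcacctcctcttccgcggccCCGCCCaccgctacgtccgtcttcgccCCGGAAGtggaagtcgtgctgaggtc
SF3B5, chr6:144095574-144095823, minus strand: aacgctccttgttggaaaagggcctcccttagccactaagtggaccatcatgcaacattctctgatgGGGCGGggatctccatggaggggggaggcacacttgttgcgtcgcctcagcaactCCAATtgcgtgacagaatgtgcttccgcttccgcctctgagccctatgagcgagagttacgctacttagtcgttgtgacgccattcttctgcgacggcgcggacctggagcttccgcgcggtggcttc
SMNDC1, chr10:110304921-110305170, minus strand: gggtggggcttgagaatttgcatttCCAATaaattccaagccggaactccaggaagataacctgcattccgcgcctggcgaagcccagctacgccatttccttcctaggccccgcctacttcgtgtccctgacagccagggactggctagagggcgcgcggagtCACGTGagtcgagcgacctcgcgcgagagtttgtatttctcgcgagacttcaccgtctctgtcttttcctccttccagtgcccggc

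The windows had different motif contents. DDX46 and SF3B4 both held the ETS letters, at 47 and 26 bases before the start, and the SP1 letters, while SF3B5 held an SP1 and a CCAAT match and SMNDC1 a CCAAT match and an E-box. A window was found for 8 of the 10 genes, PHF5A and SF3B3 having none in the table. Members are counted by gene, where any window holds the motif. The shares beside them are of windows, of which a gene such as SF3B1 can have several. The ETS letters stood in 5 of these 8 (SF3B2, SF3B4, SF3A2, SF3A3 and DDX46), against 13.9% of 13405 windows of measured genes and 8.52% of all 35116 windows. Of the 5, SF3B4 and DDX46 rose with siSF3B1, SF3A3 fell, and SF3B2 and SF3A2 were not called. The SP1 letters stood in 5 of 8, against 62.4% of windows of measured genes and 42.6% of all. Among windows of measured genes 8.36% held the E-box (2 of 8 members), 33.4% CCAAT (2 of 8), 1.78% the YY1 letters (1 of 8) and 4.26% the NRF1 letters (1 of 8). No TATAAA was found in the 8 members, against 6.25% of windows of measured genes, and no searched motif overlapped another. A match of letters is a description of the window and not a bound site.

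The silencing of SF3B1 was read by 2 of its 3 probes. On the standing probe, ILMN_1706075, the 3 set 1 arrays read 9.39, 9.10 and 9.32, and the 9 siSF3B1 arrays ran from 7.69 to 8.18 with a median of 7.99. No siSF3B1 array reached the lowest control array. SF3B1 mRNA fell by 1.29 (SE 0.09, adjusted p = 1.82e-17), which left 40.9% of the control level (95% interval 36.04 to 46.34). Each array read the RNA of a whole culture, so fewer cells with the mRNA and less mRNA per cell cannot be told apart. The probe ILMN_1674780 was near background, being detected on 5 of the 9 siSF3B1 arrays, and fell by 1.98 (SE 0.13), from 7.22, 7.08 and 7.10 in set 1 to a median of 5.13. The remaining SF3B1 probe, ILMN_1677165, was detected on 0 of 36 arrays and was not tested.

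With SF3B1 silenced, 5 of its 9 partners rose, 1 fell and 3 were not called. The largest rise was in the helicase gene DDX46, followed by SF3B4, SMNDC1, PHF5A and SF3B5, and the fall was in SF3A3. Changes were common in this comparison: 25.9% of the 11437 genes were called higher and 35.3% lower. Of the called probes 46.5% were higher, and 56.2% were with each array scaled to its median. The median change of the 9 partners was 0.81 and that of all genes was -0.06. Rises as large as that of SF3B5, the smallest of the 5, were seen in 7.58% of genes, a figure worked out after the values were seen. For 5 partners, all 9 siSF3B1 arrays lay above all 3 set 1 arrays, as they did for 19.1% of genes, and for SF3A3 and SF3B1 all lay below, as for 25.6%.

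**Figure D1:**
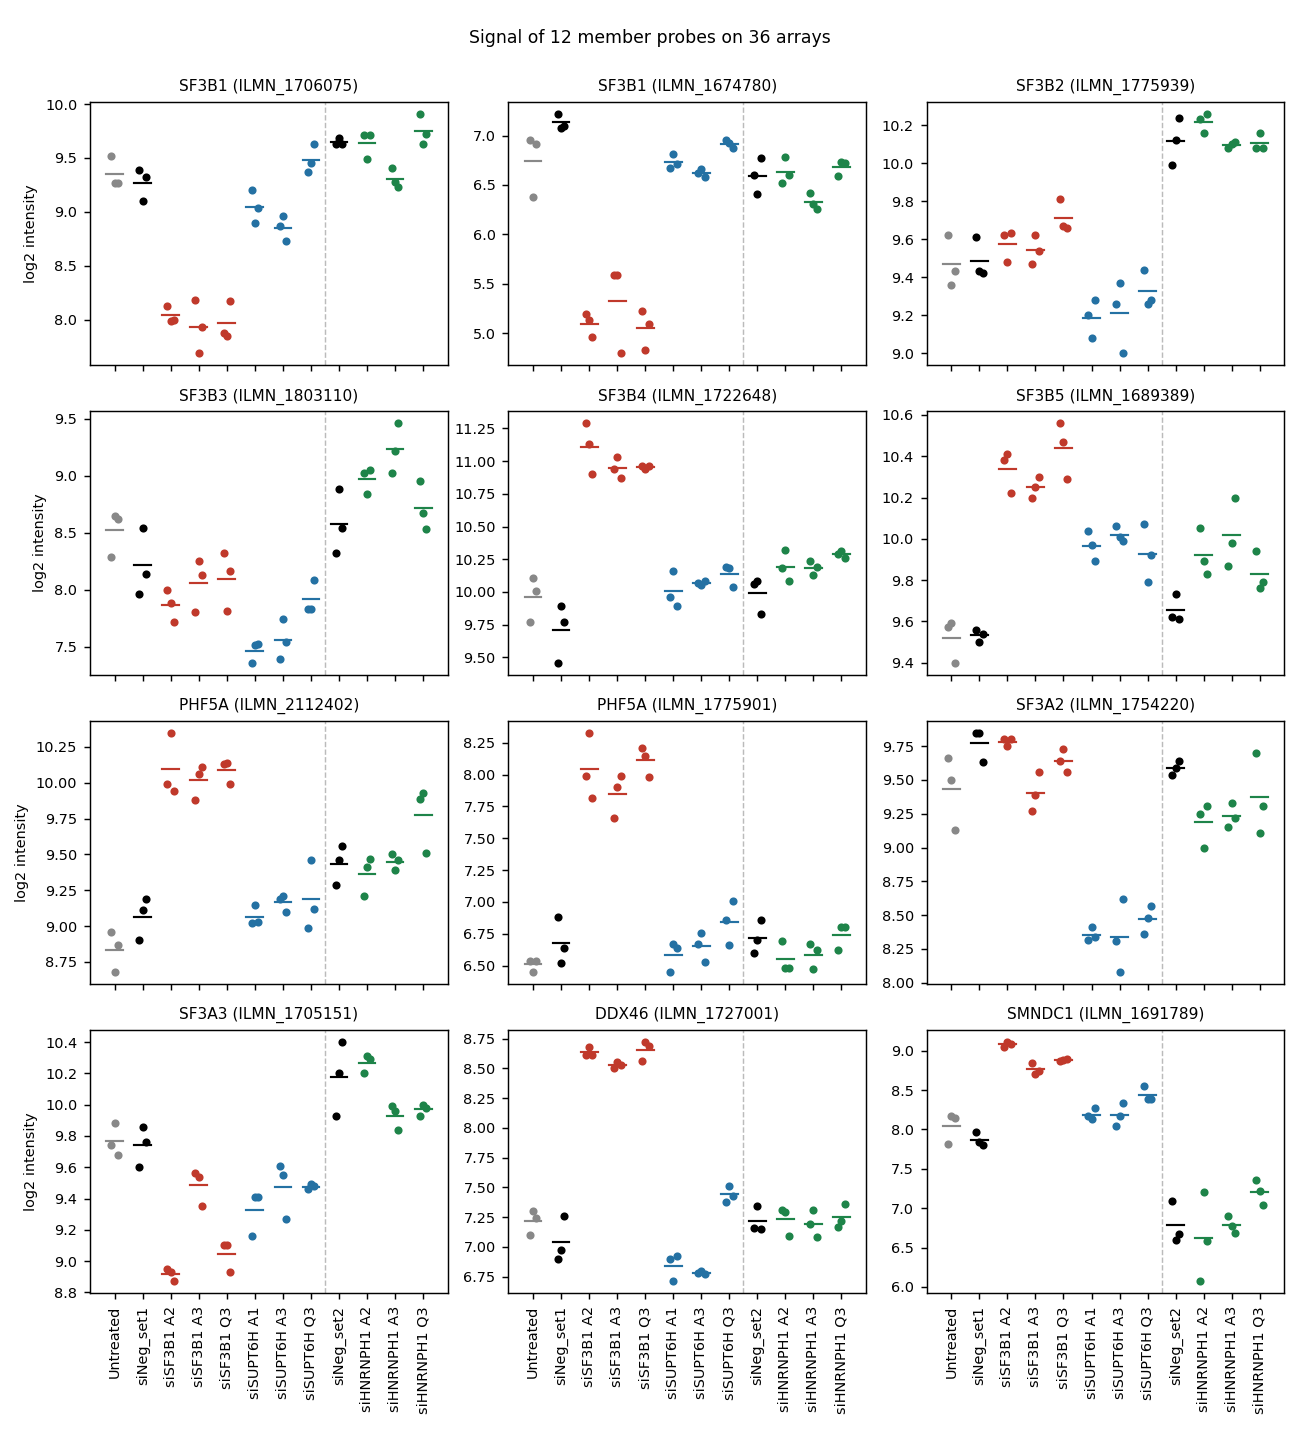
Log2 intensity of the 12 tested probes of the 10 genes on each of 36 arrays, a panel for each probe, with a point for each array and a bar at the mean of each group of 3. Arrays left of the dashed line belong with siNeg set 1 and those right of it with set 2. The siSF3B1 points (red) lie above the set 1 points (black) for SF3B4, SF3B5, PHF5A, DDX46 and SMNDC1 and below them for SF3B1 and SF3A3.

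Of the other SF3B subunits among the 10 genes, SF3B4, PHF5A and SF3B5 rose and SF3B2 and SF3B3 were not called. A further subunit outside the 10, SF3B6, rose by 0.26 (adjusted p = 0.00264) and by 0.32 on its other probe. SF3B4, an RNA recognition motif protein that contacts the intron upstream of the branch point, read 9.46, 9.89 and 9.77 in set 1 and 10.87 to 11.29 (median 10.96) with siSF3B1. All siSF3B1 arrays were high. Its rise was 1.29 (SE 0.08, adjusted p = 5.46e-19), or 2.45-fold, and ranked 243 among 11437 genes.

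PHF5A, the zinc finger partner of SF3B1 at the branch point pocket, read 8.90, 9.11 and 9.19 in set 1 and 9.88 to 10.35 (median 10.06) with siSF3B1 on its standing probe ILMN_2112402. The rise was 1.00 (SE 0.09, adjusted p = 2.73e-13), or 2.00-fold. The dimmer probe ILMN_1775901 gave 1.32 (SE 0.10), and on both probes the groups did not overlap. SF3B5, a very small subunit buried in the complex, read 9.56, 9.50 and 9.54 in set 1 and 10.20 to 10.56 (median 10.30) with siSF3B1. It rose by 0.81 (SE 0.08, adjusted p = 2.53e-13), or 1.75-fold, and its set 1 arrays were the tightest of the 5.

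SF3B2, a subunit that crosslinks to the intron around the branch point, had overlapping groups, at 9.61, 9.43 and 9.42 in set 1 and 9.47 to 9.81 (median 9.62) with siSF3B1. Its change was 0.12 (95% interval -0.03 to 0.28, adjusted p = 0.168). With arrays scaled to their medians in place of quantile normalization, which moved the median of all probes by 0.12 in this comparison, SF3B2 read 0.42 and was called, whereas against all 6 siNeg arrays it read -0.19. SF3B3, a subunit of WD40-type propellers, changed by -0.21 (95% interval -0.44 to 0.03, adjusted p = 0.132). Its set 1 arrays spread from 7.96 to 8.54 around the siSF3B1 median of 8.0. This value moved with the control arrays used. It was -0.33 and called without set 1 replicate 1 (adjusted p = 0.0347) and -0.04 without replicate 2. It was also called at -0.39 against all 6 siNeg arrays (adjusted p = 0.00221) and at -0.51 against Untreated (adjusted p = 0.000202). Set 2 read higher than set 1 by 0.37 for SF3B3 and by 0.63 for SF3B2, and values against all 6 siNeg arrays take in that difference.

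Neither SF3A gene rose. SF3A3, a zinc finger subunit of SF3A, read 9.60, 9.86 and 9.76 in set 1 and 8.87 to 9.56 (median 9.10) with siSF3B1. All 9 arrays were lower than the controls, though those of siRNA A3 lay close to them. It fell by 0.59 (SE 0.08, adjusted p = 1.81e-08), and with the 3 siRNA means taken as the replicates it was no longer called (adjusted p = 0.0567). SF3A2, the SF3A subunit that contacts the branch point duplex, read 9.85, 9.85 and 9.63 in set 1 and 9.27 to 9.80 (median 9.64) with siSF3B1. Its change of -0.17 (95% interval -0.36 to 0.03, adjusted p = 0.148) was not called, and it turned to 0.15 with median scaling and 0.18 against Untreated, neither of them called.

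Both U2-associated assembly factors rose. DDX46 read 6.90, 6.97 and 7.26 in set 1 and 8.5 to 8.72 (median 8.61) with siSF3B1, with a gap of over 1 log2 unit between the groups. Its rise of 1.56 (SE 0.09, adjusted p = 4.83e-21), or 2.95-fold, was the largest of the 10 genes and ranked 135 among 11437 genes. SMNDC1 read 7.97, 7.84 and 7.80 in set 1 and 8.71 to 9.11 (median 8.88) with siSF3B1. It rose by 1.04 (SE 0.12, adjusted p = 1.57e-10), or 2.05-fold. Its SE was the largest among the 5 genes that rose.

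These errors come from arrays that share an siRNA, and differences among the 3 siRNAs of a target are not in them. Taking the mean of each siRNA as the replicate, the 5 rises and the fall of SF3B1 were still called, with the highest adjusted p at 0.0064 for SMNDC1.

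**Figure D2:**
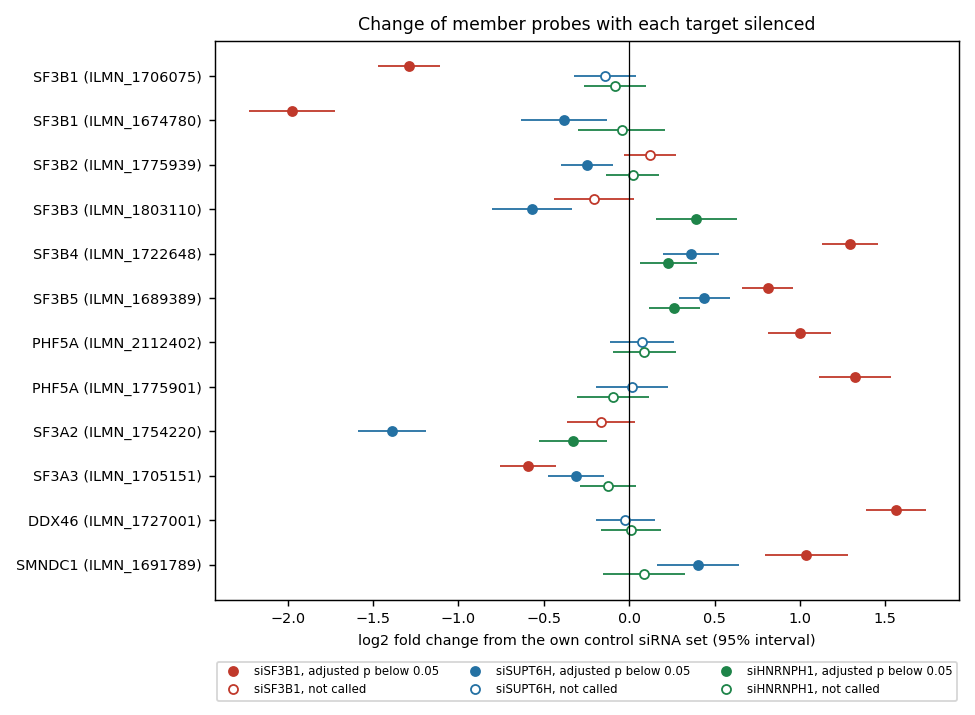
Log2 fold change of the 12 tested probes with each target silenced, against the control set of the same arrays, as points with 95% confidence intervals. Filled points passed an adjusted p of 0.05 in limma. The siSF3B1 points of DDX46 (1.56), SF3B4 (1.29), SMNDC1 (1.04), PHF5A (1.00) and SF3B5 (0.81) lie right of 0, and SF3A2 stands out with siSUPT6H at -1.39.

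The 3 SF3B1 siRNAs gave the same calls for 7 of the 10 genes. DDX46 rose by 1.59, 1.48 and 1.61 with A2, A3 and Q3, and SF3B4 by 1.40, 1.24 and 1.25. SMNDC1 rose by 1.21, 0.89 and 1.01, PHF5A by 1.03, 0.95 and 1.02, and SF3B5 by 0.81, 0.72 and 0.91. These 5 genes were called higher with each siRNA, as were 17.8% of genes, and SF3B1 and SF3A3 were called lower with each, as were 24.3%. SF3B1 itself was left at 42.6%, 39.6% and 40.5% of control by A2, A3 and Q3, and a difference among them was not called by limma's F test (adjusted p = 0.801).

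SF3A3 was the only 1 of the 10 genes whose response differed among the SF3B1 siRNAs by that test (adjusted p = 0.000141, with 12.1% of genes called). It fell by 0.82 with A2 and by 0.70 with Q3, and by 0.26 with A3. Its A3 arrays read 9.56, 9.54 and 9.35, above all arrays of A2 and Q3. The remaining calls came from single siRNAs, namely SF3B3 at -0.34 with A2, SF3A2 at -0.37 with A3 and SF3B2 at 0.23 with Q3.

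**Figure D3:**
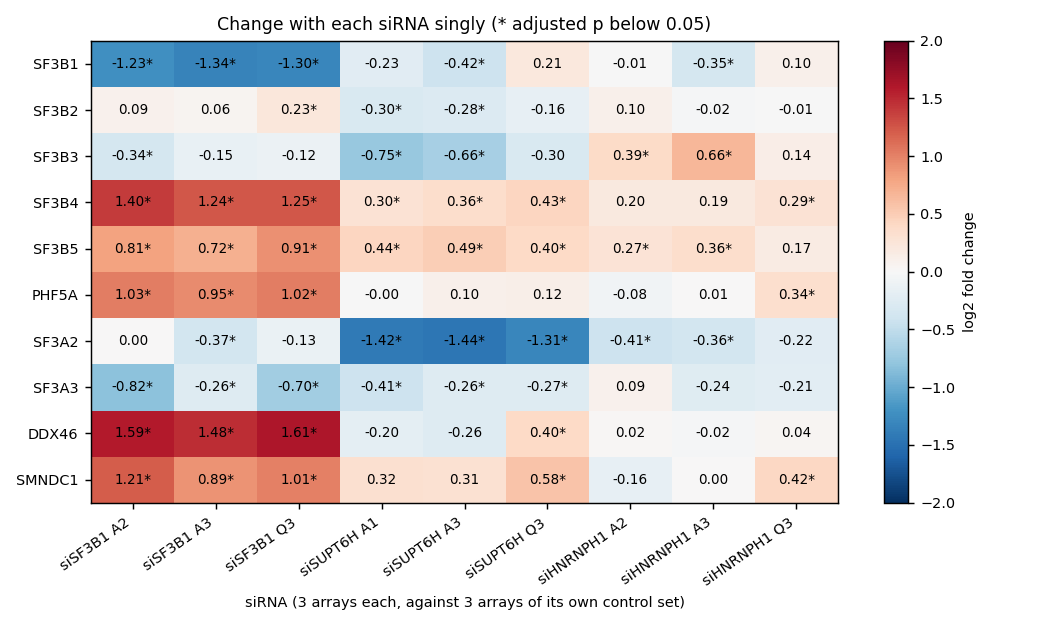
Log2 fold change of the standing probe of each of the 10 genes with each of the 9 siRNAs, 3 arrays each against 3 arrays of its control set. Colour and printed value give the change, and a star marks an adjusted p below 0.05. The rises of SF3B4, SF3B5, PHF5A, DDX46 and SMNDC1 are starred with all 3 SF3B1 siRNAs, and the fall of SF3A2 with all 3 SUPT6H siRNAs.

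With SUPT6H silenced, a histone chaperone gene of elongating RNA polymerase II, 3 of the 10 genes rose, 4 fell and 3 were not called, against 24.9% of genes called higher and 21.2% lower. The main change was in SF3A2. It read 8.08 to 8.62 (median 8.36) with siSUPT6H against 9.85, 9.85 and 9.63 in set 1, so all 9 arrays were low, as for 13.3% of genes. It fell by 1.39 (SE 0.10, adjusted p = 7.15e-17), to 38.2% of control (95% interval 33.3 to 43.8). Its changes with A1, A3 and Q3 were -1.42, -1.44 and -1.31, and a difference among the siRNAs was not called (F test adjusted p = 0.686).

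The other changes with siSUPT6H were smaller. SF3B3 fell by 0.57 (adjusted p = 6.88e-05), SF3A3 fell by 0.31 (adjusted p = 0.00149) and SF3B2 fell by 0.25 (adjusted p = 0.00695), the last of which was lost without set 1 replicate 1 (adjusted p = 0.099). SF3B5 rose by 0.44 (adjusted p = 3.22e-06), SMNDC1 by 0.40 (adjusted p = 0.00506) and SF3B4 by 0.36 (adjusted p = 0.000281). All 9 siSUPT6H arrays lay above set 1 for SF3B5 and SMNDC1, as for 14.7% of genes. Called with each of the 3 siRNAs were SF3B4 and SF3B5 higher and SF3A2 and SF3A3 lower, against 11.9% and 10.6% of genes. Only the fall of SF3A2 was still called with siRNA means as the replicates (highest adjusted p over 12 alternatives 0.000676). Against Untreated, SF3B4 read 0.11 and SMNDC1 0.23 with siSUPT6H, and neither was called.

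SF3B1 mRNA itself changed by -0.14 with siSUPT6H (95% interval -0.32 to 0.04, adjusted p = 0.216), and PHF5A by 0.07 (95% interval -0.11 to 0.26). SF3B1 was called lower against all 6 siNeg arrays (-0.33, adjusted p = 0.00147), against Untreated (-0.23, adjusted p = 0.0402) and as the mean of its probes (-0.26, adjusted p = 0.00916). The first of these values takes in set 2, which belongs with siHNRNPH1 and read 0.38 higher than set 1 for SF3B1. PHF5A was called higher against Untreated (0.30, adjusted p = 0.0074). The near-background SF3B1 probe gave -0.38 (adjusted p = 0.0123), so the probes disagreed on the call. DDX46 averaged a change of -0.02, but its siRNAs were unequal (F test adjusted p = 2.21e-06, with 32.8% of genes called). It read 7.38, 7.51 and 7.43 with Q3, a rise of 0.40 (adjusted p = 0.00244), against 6.90, 6.71 and 6.92 with A1 and 6.78, 6.80 and 6.77 with A3, neither of which was called.

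With HNRNPH1 silenced, a regulator of splicing that binds G-rich RNA, the changes against set 2 were small. SF3B3 rose by 0.39 (adjusted p = 0.00558), SF3B5 by 0.27 (adjusted p = 0.00376) and SF3B4 by 0.23 (adjusted p = 0.022), SF3A2 fell by 0.33 (adjusted p = 0.00586), and 6 genes were not called. Over all genes 20.9% were called higher and 22.8% lower. The share of called probes that were higher was 46.96%, and it was 68.26% with median scaling, which moved the median of all probes by 0.18. For SF3B5 alone all 9 siHNRNPH1 arrays lay above set 2, as for 10.5% of genes, and for none of the 10 did all lie below, as for 11.1%. None was called with each of the 3 siRNAs, as 9.01% of genes were higher and 9.53% lower. The siRNAs differed for 5 of the 10 genes by the F test, as for 39.5% of genes. All 4 calls ended when the spread among siRNAs was counted, with adjusted p from 0.203 to 0.341 for siRNA as a random block. Without siNeg replicate 4 SF3B3 was not called (0.26, adjusted p = 0.128), nor was SF3B4 without replicate 6 (0.15, adjusted p = 0.245).

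DDX46 and SMNDC1, which rose with siSF3B1, were not called with siHNRNPH1. DDX46 read 7.16, 7.34 and 7.15 in set 2 and 7.08 to 7.36 (median 7.22) with siHNRNPH1, a change of 0.01 (95% interval -0.16 to 0.19). The groups overlapped fully. SMNDC1 changed by 0.09 (95% interval -0.15 to 0.33), and its 3 A2 arrays spread from 6.07 to 7.21. SF3B1 changed by -0.08 (95% interval -0.27 to 0.10).

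The responses to different targets were also tested against each other. Between siSF3B1 and siSUPT6H, which share set 1, all 10 genes differed, 8 being higher with siSF3B1 and 2 lower (SF3B1 and SF3A3), against 30.3% and 42.5% of genes. DDX46 was higher by 1.58 (SE 0.06, adjusted p = 5.72e-28), SF3A2 by 1.22, SF3B4 by 0.93, PHF5A by 0.92 and SMNDC1 by 0.63. For SF3A2 this reflects its change of -1.39 with siSUPT6H, as its change with siSF3B1 was -0.17 and not called. SF3B2 and SF3B3, also among the 8, were not called with siSF3B1 and changed by -0.25 and -0.57 with siSUPT6H. With each target set against its own controls, the change with siSF3B1 exceeded that with siHNRNPH1 for the same 5 genes that rose, against 22.3% of genes. The difference was 1.55 for DDX46 (SE 0.12, adjusted p = 6.39e-15), 1.06 for SF3B4, 0.95 for SMNDC1, 0.91 for PHF5A and 0.55 for SF3B5. It was lower for SF3B1, SF3B3 and SF3A3, against 29% of genes.

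Levels were ordered within each control set and the arrays that belong with it, since the same control siRNA read differently in the sets. With set 1, DDX46 stood at 8.60 ± 0.08 (SD, n = 9) with siSF3B1, at 7.21 ± 0.10 (n = 3) in Untreated cells, at 7.04 ± 0.19 (n = 3) in set 1 and at 7.02 ± 0.32 (n = 9) with siSUPT6H. Apart from siSF3B1, neighbours in this order lay within their spread. With set 2 it stood at 7.23 ± 0.10 (n = 9) with siHNRNPH1 and at 7.22 ± 0.11 (n = 3) in the control, which lay within their spread. SF3B4, of which no siSF3B1 array lay below 10.87, stood at 10.07 ± 0.10 with siSUPT6H, 9.96 ± 0.18 in Untreated cells and 9.71 ± 0.22 in set 1, and at 10.22 ± 0.08 with siHNRNPH1 and 9.99 ± 0.14 in set 2, with the same n. Against Untreated in place of set 1, its rise with siSF3B1 was 1.04.

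The controls set the scale of these values. Between set 1 and Untreated 0 of the 10 genes were called, against 6.58% of genes, and at most 2 with an array left out. The largest of these uncalled differences was 0.35 for SF3A2 (adjusted p = 0.079). Between set 2 and set 1, both of the same control siRNA, 6 of the 10 genes were higher in set 2 and 1 was lower, against 23.3% and 12.1% of genes. SMNDC1 read 7.09, 6.59 and 6.67 in set 2 but 7.97, 7.84 and 7.80 in set 1, and SF3B2 was higher in set 2 by 0.63. SF3B4 was higher in set 2 by 0.28 (adjusted p = 0.0233). The main comparison of siHNRNPH1 is therefore with set 2.

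The wider U2 pathway was described by 6 lists of 27 other genes, of which 25 were measured. With siSF3B1 13 rose, 8 fell and 4 were not called, with a median of 0.26 against -0.06 over all genes, of which 25.9% were called higher and 35.3% lower. All 7 Sm core genes rose, with a median of 0.62 and the largest change at 0.84 for SNRPD1 (adjusted p = 1.31e-08), a protein of the Sm ring. SNRPB2, the U2-specific protein that binds a stem-loop of the U2 RNA, rose by 0.96 (adjusted p = 5.66e-15) and by 1.06 on its other probe.

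On the list of proteins associated with the 17S form of the particle 9 genes were measured. With siSF3B1 6 were lower, 2 higher and 1 not called, beside the same shares over all genes. The list leaves out DDX46 and SMNDC1, also proteins of the 17S form, which were followed as members above and rose. DDX39B, an RNA helicase of splicing and mRNA export, fell by 2.0 (adjusted p = 2.61e-23), although its other 2 probes gave -0.51 and -0.63. RBM10 fell by 1.11 (adjusted p = 3.49e-18) and RBM5 fell by 1.0 (adjusted p = 4.50e-13), both RNA-binding regulators of exon choice. The helicase DHX15, which takes spliceosomes apart, rose by 0.93 (adjusted p = 2.27e-13). With siSUPT6H the 25 genes gave 4 higher, 9 lower and 12 not called, where 24.9% of all genes were higher and 21.2% lower. With siHNRNPH1 they gave 0 higher, 5 lower and 20 not called, where 20.9% of all genes were higher and 22.8% lower. Among the 7 Sm genes, 3 were higher and 3 lower with siSUPT6H, and 1 was lower with siHNRNPH1.

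**Figure D4:**
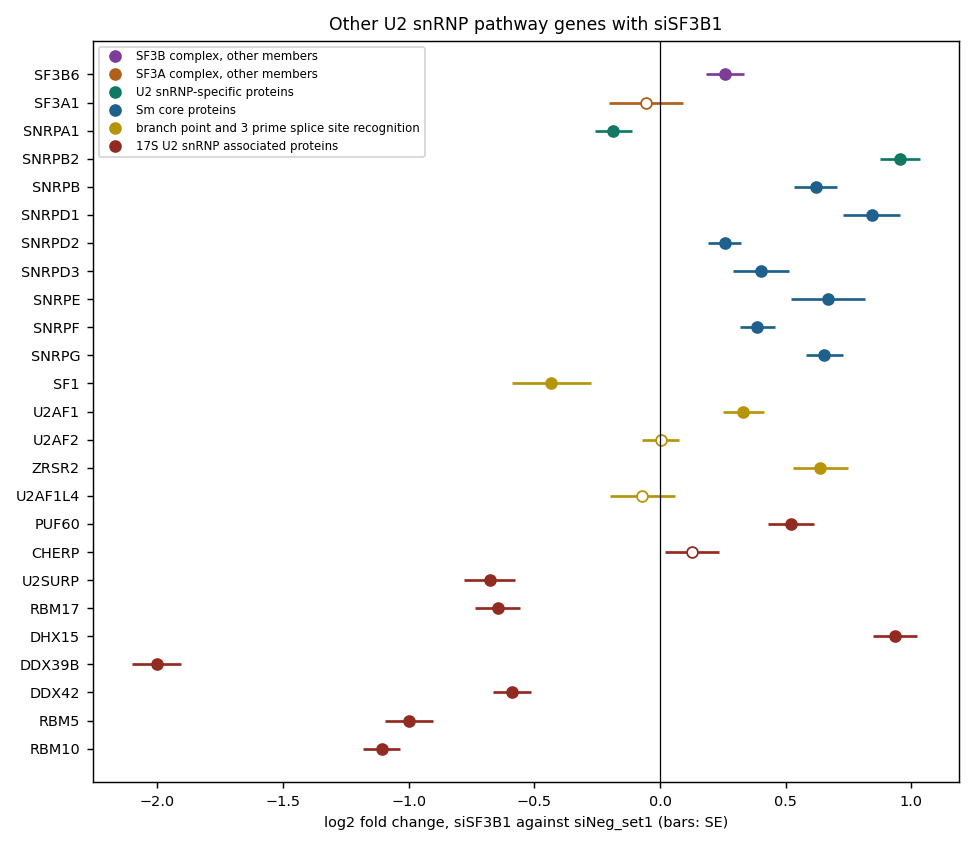
Log2 fold change with siSF3B1 against set 1 for the standing probes of 25 further U2 pathway genes, with bars of 1 SE and colours for the 6 lists. Filled points passed an adjusted p of 0.05. The 7 Sm core genes lie right of 0, and 6 of the 9 genes of the 17S list lie left of it, DDX39B farthest at -2.0.

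Genes with a pattern most like that of 4 members were found by Pearson's r over 10 differences from the own control set, those of the 9 siRNAs and of Untreated. The differences share control arrays, and the r values are descriptions only. For DDX46 the closest were ZNF410 (0.992), AIRIM (0.990) and TBRG4 (0.988). For SF3B4 they were SNORA72 (0.995), SNORD30 (0.993) and KCNE5 (0.993). For SMNDC1 they were TMED10 (0.988), ETNK1 (0.982) and TOR1AIP2 (0.979), and for SF3B1 they were AHCYL1 (0.970), SPCS1 (0.968) and PTCD2 (0.966).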

How the data were processed

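Total RNA of 36 TC32 samples was extracted with Trizol, labelled as biotinylated cRNA and hybridized, per the labels' protocols. The deposited signal table held the authors' average bead intensity of 47323 probes per array, without background subtraction, and a deposited detection p-value for each. A second deposited table held the authors' normalized log2 values of 47231 probes. Per the submitters' processing notes GenomeStudio, R 3.0.2 and lumi were used, and the normalization is not given in the sources used here. There the 12 arrays of siNeg replicates 4 to 6 and siHNRNPH1 shared 1 distribution of values and the other 24 arrays another, which is why each target has its own control set. The Untreated columns were identified as the only names that matched no other label. For 36 of 36 arrays the best rank correlation between the tables was with its own column (lowest 0.99974), and 0 pairs of arrays were identical.

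The neqc function (limma 3.58.1, R 4.3.3, offset 16) corrected the background and quantile-normalized the intensities. Probes with a detection p below 0.01 on at least 3 of 36 arrays were kept (19738). Of all probes 30113 had 1 symbol, 8 several and 17202 none in the platform annotation, and the brightest kept probe stood for each of 11437 genes. A limma model of 12 groups, with 24 residual degrees of freedom and trended eBayes, gave all tests, two-sided, with Benjamini-Hochberg adjustment over all kept probes, and the script was tested on simulated data. Arrays of a group correlated at 0.9885 to 0.9949, and precision is limited by the number of arrays. Sequences came from RefSeq's table for GRCh38.p14.

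The members, lists and tests were chosen with earlier results of these data known. All 10 members were named with every probe. From the wider lists came the 6 genes with the largest called change with siSF3B1, beside list counts. SF3B6 was added as an SF3B subunit, and also named were the 3 genes most like SF3B1, SF3B4, DDX46 and SMNDC1. Of the lists, HTATSF1 had no kept probe and SUGP1 had no probe in the annotation. Alternatives covered background correction, normalization, filter, control arrays, spread among siRNAs, probe choice, replicate block and leaving out arrays. Replicate numbers were not used as pairs. Correlations of same-numbered deviations ran from -0.1159 to 0.1208, with 1 of 27 above 0.1. They showed little shared deviation but cannot tell whether same-numbered arrays were handled together.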

Additional observations from a re-analysis of the deposited data

Results flagged for a closer look

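Responses of 9 gene and target pairs differed among the 3 siRNAs of a target by limma's F test, adjusted over all kept probes. With siSF3B1 this held for SF3A3 (adjusted p = 0.000141), which fell least with A3. With siSUPT6H it held for DDX46 (adjusted p = 2.21e-06), SF3B1 (adjusted p = 3.98e-05) and SF3B3 (adjusted p = 0.0276). SF3B1 changed by -0.23, -0.42 and 0.21 with A1, A3 and Q3, and SF3B3 by -0.75, -0.66 and -0.30. With siHNRNPH1 it held for SF3B1 (adjusted p = 0.00279), SMNDC1 (adjusted p = 0.00378), PHF5A (adjusted p = 0.00729), SF3B3 (adjusted p = 0.012) and SF3A3 (adjusted p = 0.0122). PHF5A changed by -0.08, 0.01 and 0.34 with A2, A3 and Q3, SMNDC1 by -0.16, 0.00 and 0.42, and SF3B3 by 0.39, 0.66 and 0.14. SF3B1 changed by -0.01, -0.35 and 0.10 with the same siRNAs, and SF3A3 by 0.09, -0.24 and -0.21. The other PHF5A probe gave an adjusted p of 0.455 in the same test with siHNRNPH1. The other SF3B1 probe was not called either, at 0.324 with siSUPT6H and 0.132 with siHNRNPH1. Over all genes the test called 12.1% with siSF3B1, 32.8% with siSUPT6H and 39.5% with siHNRNPH1.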

How the results depend on the processing

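The rises of DDX46, SF3B4, SMNDC1, PHF5A and SF3B5 and the fall of SF3B1 with siSF3B1 kept direction and call under all 12 alternatives other than leaving out arrays, with ranges of 1.17 to 1.64, 1.04 to 1.73, 0.85 to 1.58, 0.81 to 1.34, 0.75 to 1.19 and -1.63 to -1.08. They also did with each array left out. Counting the spread among siRNAs lowered the counts. The fit on siRNA means left each control set as a single value, without the spread among its arrays. With siRNA as a random block (correlation 0.383), 6637 probes were called with siSF3B1, 3190 with siSUPT6H and 2442 with siHNRNPH1, and with siRNA means as replicates 5220, 1519 and 943, against 11189, 7967 and 7470. Member genes lower with siSF3B1 then numbered 1 with siRNA means. With siSUPT6H 1 and 0 members were higher and 1 and 1 lower under the random block and the means, and with siHNRNPH1 0 were higher and 0 lower under either. The replicate block gave 11245, 8047 and 7536 probes and changed no call of a member gene. Since the numbers were not used as pairs in the main fit, it is given only here.

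Other control arrays changed values with siHNRNPH1. Against all 6 siNeg arrays 5 members were higher and 2 lower, where 9506 of 19738 probes were called and 47.9% of these were higher. SF3B1 then read 0.10, SF3A3 0.10 and SMNDC1 -0.46, each opposite in sign to the main value. Set 2 minus set 1 was 0.38 for SF3B1, 0.44 for SF3A3 and -1.08 for SMNDC1, and pooling the sets carries such differences into the values. Against Untreated 7 were higher and 1 lower, with 10511 of 19738 probes called against 7470, and 50.9% of the 10511 were higher. SF3B1 read 0.21, SF3A3 0.28 and SMNDC1 -1.17. The Untreated arrays belong with set 1, so differences between the arrays of the sets are in these counts and values too. With siSF3B1, SF3B2 read -0.19 against all 6 siNeg arrays, SF3A2 0.18 against Untreated and 0.15 with median scaling, and with siSUPT6H PHF5A read -0.11 against all 6 and 0.30 against Untreated, the latter called. The mean of its probes gave PHF5A 0.00 (-0.0027) with siHNRNPH1. In the authors' values 1 member was called between siNeg set 1 and Untreated, and 2 members differed among the SF3B1 siRNAs, which were 3 with median scaling. Shares over all genes were not worked out in these settings, and in the main fit they were 6.58% and 12.1%. What made the control sets differ was not tested, nor were the causes of the other changes.

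With arrays left out in turn, probes called ran from 10082 to 11197, 6809 to 7902 and 6241 to 7413. Members lower with siHNRNPH1 numbered 1 to 2, with 2 without siNeg replicate 4, where SF3B3 was lost and SF3A3 gained. SF3B4 was lost without replicate 6. Members called between set 1 and Untreated numbered 0 to 2, with 2 without Untreated replicate 1. Signs changed only for uncalled values, namely PHF5A (-0.0101 to 0.1344) and DDX46 (-0.0925 to 0.0844) with siSUPT6H, and SF3B2 (-0.0444 to 0.0828), DDX46 (-0.0218 to 0.0738) and SMNDC1 (-0.0116 to 0.2405) with siHNRNPH1. A slide block was not run, since no column names a slide. The dim SF3B1 probe was detected on 5 of 9 siSF3B1 arrays, so the size of its fall is limited by background.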
